A study of Homo sapiens with 4 samples.

Results

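The 10 genes described here encode proteins of the intermediate filament family: VIM (vimentin), NES (nestin), SYNM (synemin), the keratins KRT7, KRT8, KRT10, KRT18 and KRT19, and the lamins LMNA and LMNB1. They were chosen by name, and all 10 were found by symbol among the 25559 gene symbols counted in each library. RNA-seq was carried out on HGC27, a human gastric cancer cell line. There were 2 libraries labelled wildtype (wt, the control cells of the study) and 2 labelled RUNX3 knock-out (RUNX3KO). RUNX3 is a Runt domain transcription factor, and the comparison asks which transcripts differ when it is disrupted. The RUNX3KO cells had received Cas9 and a guide against RUNX3 by lentivirus, puromycin selection and single-cell cloning. The number of clones behind the libraries, and whether the control cells carried a vector, were not given in the sources used here. Nothing in the labels says that libraries of a group came from separate cultures, so p-values measure only the spread between these libraries, which may be technical.

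Intermediate filaments are rope-like polymers that give cells and nuclei mechanical strength. Keratins form obligate pairs of a type I and a type II chain and are the filaments of epithelia, with KRT8 and KRT18 as the pair typical of simple epithelium such as that of the stomach. Vimentin is the main type III filament of mesenchymal cells, and nestin and synemin are large proteins that build into filaments together with vimentin. Lamins line the inside of the nuclear envelope in every nucleated cell. A shift from keratin to vimentin is a classical sign of epithelial–mesenchymal transition.

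Reads counted on genes numbered between 11731401 and 12110876 per library, and replicates were close to each other (chi-square over degrees of freedom 1.22 for the wt pair and 1.18 for the RUNX3KO pair). RUNX3 itself had 351 and 308 counts in wt and 225 and 185 in RUNX3KO, so its transcript was lower but still counted (log2 fold change -0.70, SE 0.0961; edgeR quasi-likelihood test, adjusted p = 1.43e-09). A cut by Cas9 need not remove the transcript, so these counts alone do not check the knock-out. The study states that it checked the deletion in mRNA and in protein after cloning. Markers that define epithelium were low in both groups. EPCAM had 1 count in each wt library and 0 in each RUNX3KO library, and ESRP1, CLDN4 and ELF3 had at most 5 counts in any library. CDH1, which encodes E-cadherin, had 15 and 21 counts in wt and 30 and 32 in RUNX3KO, and CLDN7 had 19 and 14 and then 35 and 21. These 2 were the epithelial markers tested, and both passed as higher, as did 24.5% of all tested genes (log2 fold changes 0.77, SE 0.293, and 0.75, SE 0.313; edgeR quasi-likelihood test, adjusted p = 0.0238 and 0.0406). The summed level of 6 epithelial markers was 3.47 CPM in each wt library and 5.40 to 6.18 CPM in RUNX3KO. CPM stands for counts per 1000000, scaled by edgeR's TMM method. Of 8 gastric markers, 6 were at 0 in all libraries. MUC1, the 1 gastric marker tested, had 87 and 100 counts in wt and 86 and 85 in RUNX3KO. It did not pass in the edgeR quasi-likelihood test (log2 fold change -0.14, SE 0.155). Markers of leukocytes and endothelium summed to 0.0846 to 0.762 CPM. Of the mesenchymal markers, THY1 and ZEB1 were expressed in every library, while CDH2 had at most 3 counts.

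The RefSeq sequences (GRCh38.p14) of the 250 bases before the start of VIM, NES and KRT8 are shown because VIM was the most abundant member and NES and KRT8 were the members that changed by more than 2-fold. Capitals mark the letters TGTGGT, a core of the RUNX recognition sequence. VIM lies on the plus strand (chr10:17227991-17228240), NES on the minus strand (chr1:156677408-156677657) and KRT8 on the minus strand (chr12:52926470-52926719). Each is read 5′ to 3′ toward the start of its RefSeq entry, which need not be the 5′ end of the gene span given below.
VIM: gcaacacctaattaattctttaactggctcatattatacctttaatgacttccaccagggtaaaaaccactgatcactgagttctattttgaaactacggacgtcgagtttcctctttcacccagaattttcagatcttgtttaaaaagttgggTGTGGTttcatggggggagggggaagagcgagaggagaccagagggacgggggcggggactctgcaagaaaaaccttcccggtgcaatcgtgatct
NES: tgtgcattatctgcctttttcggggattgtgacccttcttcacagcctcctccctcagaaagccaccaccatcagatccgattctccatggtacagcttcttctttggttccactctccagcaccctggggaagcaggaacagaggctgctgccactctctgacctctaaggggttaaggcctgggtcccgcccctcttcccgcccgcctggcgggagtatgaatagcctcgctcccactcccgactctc
KRT8: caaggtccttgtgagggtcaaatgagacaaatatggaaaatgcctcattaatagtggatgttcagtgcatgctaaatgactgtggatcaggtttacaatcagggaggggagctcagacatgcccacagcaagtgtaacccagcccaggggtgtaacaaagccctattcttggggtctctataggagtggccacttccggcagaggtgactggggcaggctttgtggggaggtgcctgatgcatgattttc
The letters searched were TGTGGT, which reads as ACCACA on the other strand, and TGCGGT, which reads as ACCGCA there. Both strands were searched, and the last base of one can be the first of the next. VIM held TGTGGT once, beginning at position -96 where -1 is the base before the start. NES and KRT8 held neither. Of the 10 members, 7 had an entry in the table, with 10 windows in all, and the VIM window was the 1 that held a match. Among 35116 promoter windows of the same length, 11.0% held TGTGGT, 5.84% held TGCGGT and 16.3% held either, so a single match is not rare.

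Vimentin was the dominant transcript of the family and fell in RUNX3KO cells. VIM (ENSG00000026025) lies on chromosome 10 from 17270240 to 17279592 on the plus strand (hg19). It had 57834 and 57486 counts in the wt libraries and 33828 and 35307 in the RUNX3KO libraries, and the groups did not overlap. Its mean was 4881 ± 19.4 CPM in wt and 2899 ± 50 CPM in RUNX3KO (SD, n = 2 per group), or 1.68-fold (log2 fold change -0.75, SE 0.0194; edgeR quasi-likelihood test, adjusted p = 1.84e-53). The study selected VIM from these same libraries, so its direction is not independent evidence. Fewer cells with a high level and less RNA per cell cannot be told apart in bulk RNA. Of the 10 members, 7 had enough counts to be tested, and these 7 were past an adjusted p of 0.05 in the edgeR quasi-likelihood test, 4 lower and 3 higher. By that rule 48.9% of all tested genes were called, so a call alone sets no member apart, and 24.4% of the 12967 genes tested were lower and 24.5% higher by that rule. The groups did not overlap in any of the 7, a pattern that 36.4% of tested genes showed in the lower and 36.3% in the higher direction. By the criteria of the study (fold change of at least 2, unadjusted p of at most 0.05), 4.01% of genes were lower and 2.11% higher, and only NES and KRT8 among the members met them.

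No other abundant gene fell as far as VIM. By counts, VIM ranked number 4 among tested genes in both wt libraries and number 13 and 11 in the RUNX3KO libraries. Of the 79 other tested genes with a mean of at least 1000 CPM, 0 had a log2 fold change below that of VIM. The nearest was TUBA1B, an alpha-tubulin of microtubules, with a log2 fold change of -0.36 (SE 0.0216). It was followed by COL3A1 at -0.30, RPL12 at -0.23, RPL3 at -0.17 and RPS2 at -0.16 on the log2 scale. The genes around VIM were also lower. Among the 40 nearest tested genes, which span 12.5 Mb, 36 were below 0, 6 were at least as low as VIM, and the median was -0.33 on the log2 scale. The log2 fold change of VIM minus this median was -0.42. The part of the neighbourhood in the fall of VIM was not tested. Markers of mesenchymal cells were lower as well. Of 5 listed, 4 were tested and all 4 passed as lower in the edgeR quasi-likelihood test, as did 24.4% of all genes, with log2 fold changes of -3.01 (FN1, fibronectin), -1.25 (PDGFRB), -0.28 (THY1) and -0.26 (ZEB1). Their summed level was 208 and 204 CPM in wt and 160 and 163 CPM in RUNX3KO, and its part in the fall of VIM was not tested.

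**Figure D1:**
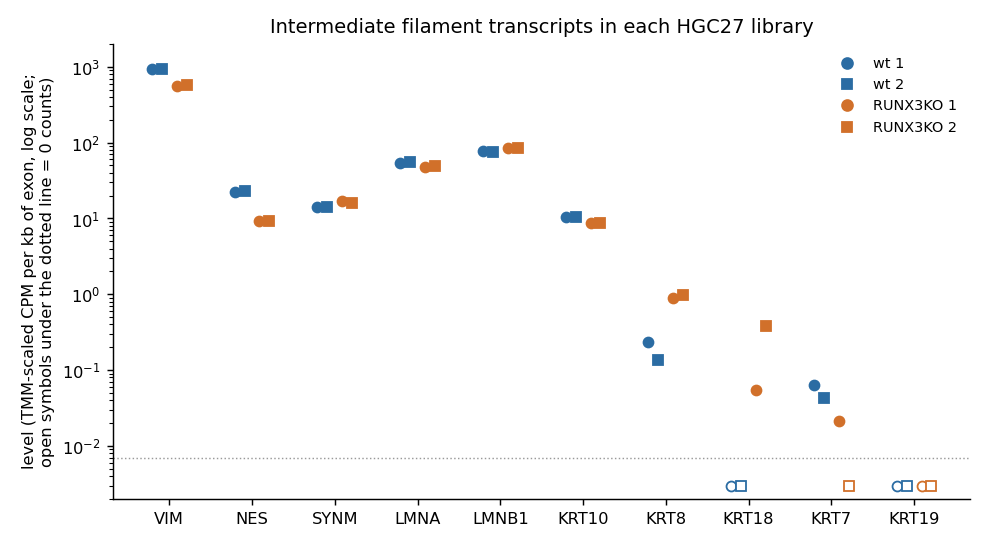
Level of each member in each library, as TMM-scaled CPM per kilobase of exon on a log axis. Blue symbols are wt and orange symbols RUNX3KO, circles replicate 1 and squares replicate 2, and open symbols under the dotted line stand for 0 counts. VIM stands above every other member in all 4 libraries, and KRT18, KRT7 and KRT19 lie at or near 0.

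Nestin fell further than vimentin. NES (ENSG00000132688; chromosome 1 from 156638555 to 156647199, minus strand) encodes a filament protein of progenitor cells that needs a partner such as vimentin to polymerize. It had 1474 and 1519 counts in wt and 606 and 612 in RUNX3KO. Both RUNX3KO libraries were far below both wt libraries. NES fell from a mean of 127 ± 2.73 CPM to one of 51.1 ± 0.309 CPM (SD, n = 2 per group), which is 2.48-fold (log2 fold change -1.31, SE 0.0501; edgeR quasi-likelihood test, adjusted p = 2.24e-40). Within a library, 100 VIM counts were accompanied by 2.55 and 2.64 NES counts in wt and by 1.79 and 1.73 in RUNX3KO. The fall of nestin was thus larger than that of its partner in both libraries, on a measure that no library scaling can alter. Around NES, the median over the closest 40 tested genes was -0.05 on the log2 scale, and 2 were at least as low as NES.

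Synemin went the other way. SYNM (ENSG00000182253; chromosome 15 from 99638420 to 99675798, plus strand) encodes a large protein that links vimentin or desmin filaments to adhesion sites. It had 1291 and 1306 counts in wt and 1578 and 1510 in RUNX3KO, a rise of 1.18-fold (log2 fold change 0.24, SE 0.0425; edgeR quasi-likelihood test, adjusted p = 1.57e-06). For each 100 VIM counts there were 2.23 and 2.27 SYNM counts in wt and 4.66 and 4.28 in RUNX3KO, so the ratio was 1.99 times higher on average. The surrounding genes rose more than SYNM did. It lies near the end of the long arm, where the 36 tested neighbours had a median of 0.63 on the log2 scale and 30 were at least as high as SYNM. Relative to that median, the log2 fold change of SYNM was -0.40, the opposite sign. The part of the neighbourhood in the rise of SYNM was not tested.

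**Figure D2:**
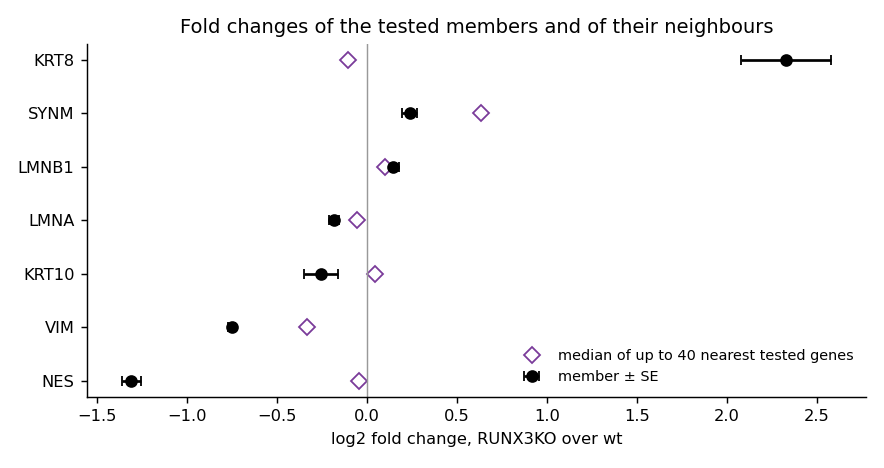
Log2 fold change, RUNX3KO over wt, of the 7 tested members (black points, bars of 1 SE from edgeR) beside the median of the nearest tested genes on the same chromosome (open diamonds, up to 40 genes). VIM at -0.75 lies beyond a neighbourhood median of -0.33, and SYNM at 0.24 lies below its neighbourhood at 0.63.

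The lamins changed little, in opposite directions. LMNA (ENSG00000160789; chromosome 1 from 156052364 to 156109872, plus strand) encodes lamins A and C, which stiffen the nucleus. It had 5259 and 5295 counts in wt and 4591 and 4796 in RUNX3KO, and its mean went from 447 ± 2.29 CPM down to 394 ± 7.03 CPM (SD, n = 2 per group), or 1.13-fold. LMNB1 (ENSG00000113368; chromosome 5 from 126112315 to 126172712, plus strand) encodes lamin B1, a farnesylated lamin that stays at the membrane and whose level follows proliferation. It had 3335 and 3247 counts in wt and 3613 and 3738 in RUNX3KO, a rise of 1.11-fold. The log2 fold changes were -0.18 (SE 0.0272) for LMNA and 0.15 (SE 0.0303) for LMNB1, with adjusted p-values of 1.52e-08 and 2.69e-05 in the edgeR quasi-likelihood test. Around LMNA the median over 40 tested genes was -0.05 on the log2 scale, and 13 were at least as low as LMNA. LMNB1 lost its call when RUNX3KO replicate 2 was left out (adjusted p = 0.0704, within a range of 1.88e-05 to 0.0704 over the alternatives). Over its 40 nearest tested genes on chromosome 5 the median was 0.10 on the log2 scale, and 17 were at least as high as LMNB1. The third lamin gene, LMNB2, also rose, by 0.18 on the log2 scale (SE 0.0254). The ratio of LMNA to LMNB1 counts was 1.58 and 1.63 in wt and 1.27 and 1.28 in RUNX3KO, without overlap. Set against both B-type genes together, LMNA gave 0.468 and 0.50 in wt and 0.378 and 0.380 in RUNX3KO.

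Keratins were scarce in both groups. All 55 keratin symbols together had 421 and 399 counts in the wt libraries and 588 and 661 in the RUNX3KO libraries. KRT10 (ENSG00000186395; chromosome 17, minus strand, 38974369 to 38978866), a type I chain best known from differentiated epidermis, gave most of the keratin counts in wt. It had 271 and 267 counts in wt and 225 and 229 in RUNX3KO, a log2 fold change of -0.26 (SE 0.0948; edgeR quasi-likelihood test, adjusted p = 0.0184). This call was not firm. It was lost with DESeq2 (adjusted p = 0.228) and without wt replicate 1, RUNX3KO replicate 1 or RUNX3KO replicate 2 (adjusted p = 0.0756, 0.0990 and 0.102), over a range of 0.0111 to 0.228, while the log2 fold change stayed between -0.28 and -0.25.

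KRT8 had the largest rise among the tested members. This type II keratin of simple epithelium (ENSG00000170421) lies on the minus strand of chromosome 12, at 53290971 to 53343738. It had 19 and 11 counts in wt and 72 and 81 in RUNX3KO, and the groups did not overlap. Mean KRT8 was 1.27 ± 0.478 CPM in wt and 6.41 ± 0.450 CPM in RUNX3KO (SD, n = 2 per group), or 5.02-fold, though it remained low (log2 fold change 2.33, SE 0.251; edgeR quasi-likelihood test, adjusted p = 1.90e-13). With 1 library left out at a time the log2 fold change ranged from 1.99 to 2.77, the widest range among the tested members. The 40 nearest tested genes on chromosome 12 had a median of -0.11, and 0 of them rose as far.

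KRT18, the type I partner of KRT8 encoded next to it (ENSG00000111057; chromosome 12 from 53342655 to 53346690, plus strand), did not pass the filter. It had 0 counts in both wt libraries, which allows up to 0.254 CPM at 3 counts, and 2 and 14 counts in the RUNX3KO libraries. Most of its counts thus came from RUNX3KO replicate 2. Fitted without a filter, its difference did not pass (edgeR quasi-likelihood test, adjusted p = 0.126). It entered the filtered test only when a wt library was left out, through the 14 counts of RUNX3KO replicate 2 against a group at 0, so no p-value is given for that case. KRT8 and KRT18 have many processed pseudogene copies, 51 and 68 by name in the GENCODE annotation. Of the 50-base windows in their principal transcripts, 58.9% for KRT8 and 65% for KRT18 occur once in the genome, against 99.1% to 100% for the other members. Between 1451530 and 1479677 reads per library were set aside because they aligned in several places. The part of such reads in the low counts of both genes was not tested.

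KRT7 and KRT19, both keratins of glandular epithelium, were almost or wholly undetected. KRT7 (ENSG00000135480; chromosome 12 from 52626304 to 52645970, plus strand) had 3 and 2 counts in wt and 1 and 0 in RUNX3KO, which is at the floor in both groups. KRT19 (ENSG00000171345; minus strand of chromosome 17, 39679869 to 39684560) had 0 counts in all 4 libraries, although 99.5% of its 50-base windows are found once. Neither can be compared at this depth.

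Per kilobase of exon, which allows genes to be compared, VIM stood at 943 ± 3.75 CPM per kb in wt and 560 ± 9.66 in RUNX3KO (SD, n = 2 in each group). LMNB2, which is not a member, had 120 ± 6.17 CPM per kb in wt and 135 ± 1.85 in RUNX3KO. Among the members, LMNB1 followed VIM with 76.7 ± 1.43 and 84.9 ± 0.936, and LMNA with 54.9 ± 0.281 and 48.4 ± 0.864 CPM per kb. LMNB1 and LMNA did not overlap, but their order rests on the length used. With the longest coding transcript in place of all exons, LMNA was above LMNB1, at 141 against 96.4 in wt and 124 against 107 in RUNX3KO. NES was above SYNM in wt, at 22.8 ± 0.490 against 14.1 ± 0.120 CPM per kb, and below it in RUNX3KO, at 9.17 ± 0.0555 against 16.7 ± 0.736. With the longest coding transcript the order also changed, at 22.8 for NES against 15 for SYNM in wt and 9.17 against 17.6 in RUNX3KO. KRT10 came next with 10.5 ± 0.108 in wt and 8.80 ± 0.00492 in RUNX3KO, close to NES in the latter. KRT8 had 0.185 ± 0.0695 and 0.932 ± 0.0654 CPM per kb, and KRT18, KRT7 and KRT19 were at or near 0.

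The make-up of the family's counts shifted away from vimentin. The family was taken as 70 genes, of which 45 had 0 counts in all libraries. It received 77694 and 76764 counts in wt and 53461 and 55604 in RUNX3KO. VIM took 74.4% (95% Wilson interval 74.1 to 74.7) and 74.9% (74.6 to 75.2) of them in wt, and 63.3% (62.9 to 63.7) and 63.5% (63.1 to 63.9) in RUNX3KO. The intervals cover counting error only. The share of VIM was therefore 11.3 percentage points lower. NES went from 1.94% ± 0.0577 to 1.12% ± 0.0233, while SYNM went from 1.68% ± 0.0281 to 2.83% ± 0.167 (SD, n = 2 in each group). Both lamins among the members took a larger share, LMNA with 8.61% ± 0.0267 after 6.83% ± 0.0911 and LMNB1 with 6.74% ± 0.0252 after 4.26% ± 0.0443. LMNA thus gained in share although its level fell. The third lamin gene, LMNB2, gained most among the genes whose shares were computed, from 9.87% ± 0.428 to 15.98% ± 0.0173, or 6.10 points. KRT8 rose in share from 0.0194% ± 0.00716 to 0.140% ± 0.00777. The share of KRT10 was 0.348% ± 0.000696 in wt and 0.416% ± 0.00638 in RUNX3KO. Both RUNX3KO shares of KRT10 lay above both wt shares, although Wilson intervals of single libraries overlapped (0.310 to 0.393 in wt replicate 1, 0.369 to 0.479 in RUNX3KO replicate 1). With lamins left out, so that only cytoplasmic filaments counted, VIM held 94.5% ± 0.0540 in wt and 92.3% ± 0.206 in RUNX3KO. In each of these comparisons the shares of the 2 groups did not overlap, but an exact two-sided permutation test of 2 against 2 gives p = 0.333 at the least and can settle none of them.

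The ratio of vimentin to keratins combines changes already given, so its direction and its larger factor follow from them. For each count of KRT8 or KRT18 there were 3044 and 5226 VIM counts in wt and 457 and 372 in RUNX3KO, 9.98 times fewer on average. The counts of KRT8 in wt are few, so this factor is imprecise. Against all keratins, VIM had 137 and 144 counts per keratin count in wt and 57.5 and 53.4 in RUNX3KO, 2.54 times fewer, and transcripts of VIM outnumbered keratins in every library. Among keratins, the share of KRT10 was 65.6% ± 1.80 in wt and 36.5% ± 2.56 in RUNX3KO (SD, n = 2 in each group), whereas that of KRT8 was 3.63% ± 1.24 and 12.2% ± 0.00655. KRT4 went from 22.4% ± 1.56 to 39.5% ± 1.49 of keratin counts. In the RUNX3KO libraries KRT4 had 38.4% and 40.5% and KRT10 had 38.3% and 34.6%.

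The other genes of the family moved in both directions. Of the 70 genes, 12 were tested, 1 of which (NEFL) passed the filter through wt alone. Among the other 11, 5 were lower and 6 higher in the edgeR quasi-likelihood test, where 24.4% of all tested genes were lower and 24.5% higher. Their median log2 fold change was 0.15, or -0.02 with NEFL, against -0.0021 over all genes tested. Lower beside VIM, NES, LMNA and KRT10 were the neuronal filament genes NEFL and PRPH. NEFL, the neurofilament light chain, had 32 and 29 counts in wt and 8 and 9 in RUNX3KO, and having passed through the group where it is high it had to differ. PRPH, which encodes peripherin, had 137 and 131 counts and then 85 and 78 (log2 fold change -0.73, SE 0.143). KRT4 and KRT80 rose with KRT8. KRT4, a type II keratin of stratified mucosa, had 99 and 85 counts in wt and 226 and 268 in RUNX3KO (log2 fold change 1.41, SE 0.122), and KRT80 had 29 and 23 and then 58 and 62 (log2 fold change 1.19, SE 0.231). The 3 type II keratins tested were thus higher in RUNX3KO. KRT10, the 1 type I keratin tested, was lower, by a call that was not firm. The type I chain KRT18, not tested, had 0 counts in both wt libraries and 2 and 14 in RUNX3KO. Neurofilament NEFH, not tested, had 0 counts in both wt libraries and 10 and 9 in RUNX3KO.

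Genes that tie filaments to junctions and to other parts of the cytoskeleton were described from a list of 15 symbols, of which 8 were tested. JUP was 1 of them and passed the filter through RUNX3KO alone. Among the other 7, 2 were lower and 3 higher in the edgeR quasi-likelihood test, beside 24.4% lower and 24.5% higher over all genes. Their median log2 fold change was 0.04, or 0.27 with JUP. The 3 that rose were DSP, PKP2 and PKP4, while PKP1, PKP3, PPL and EVPL of the same list had at most 6 counts in any library and were not tested. DSP, desmoplakin, which anchors keratins at desmosomes, had 173 and 179 counts in wt and 943 and 974 in RUNX3KO. JUP, plakoglobin, had 3 and 6 counts and then 21 and 27. The log2 fold change of DSP was 2.43 (SE 0.0745), and PKP2 and PKP4 rose by 0.60 and 0.51. PLEC, plectin, the cross-linker of vimentin filaments, fell by 0.27 on the log2 scale (SE 0.0302), as did MACF1 (SE 0.0311). DST and TCHP did not pass, with log2 fold changes of -0.04 and 0.04.

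Partners and processing enzymes of lamins were mostly near 0. Of 24 listed symbols, 22 were found and tested, with 3 lower, 7 higher and 12 not called in the edgeR quasi-likelihood test, and a median log2 fold change of 0.00. Over all genes 48.9% were called, so the 10 calls are no more than that share of the list. With DESeq2, 6 of the list were called, and 3692 over all genes. The lower genes in the edgeR test were SYNE2, SUN2 and TOR1AIP2. SYNE2 encodes nesprin-2, which with SUN2 bridges the nuclear envelope to the cytoskeleton, and had 1172 and 1245 counts in wt and 867 and 761 in RUNX3KO (log2 fold change -0.58, SE 0.0517). SUN2 had 781 and 785 and then 513 and 583 counts (log2 fold change -0.53, SE 0.0605). SYNE1, for nesprin-1, rose by 1.19 (SE 0.252) from 23 and 20 counts to 46 and 53. The other 6 that rose, LMNB2 and TOR1AIP1, TMEM43, ZMPSTE24, RCE1 and FNTA, had log2 fold changes of 0.13 to 0.33. ZMPSTE24 cleaves prelamin A, and RCE1 and FNTA act in the modification of farnesylated proteins. The lamin partners EMD (emerin), TMPO and BANF1 had log2 fold changes of -0.00225 (SE 0.0461), 0.00225 (SE 0.0307) and 0.0110 (SE 0.0434) and did not pass.

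Enzymes known to modify filament proteins shifted by small amounts. Of 12 listed, 11 were tested, with 3 lower and 4 higher and a median log2 fold change of 0.05, where 24.4% of all genes were lower and 24.5% higher. The mitotic kinases CDK1, AURKB and PLK1, which phosphorylate vimentin or lamins at cell division, rose by 0.13, 0.15 and 0.23 (SE 0.0333, 0.0439 and 0.0329). PRKCA rose by 0.32, and PAK1, AKT1 and ROCK2 fell by 0.32, 0.15 and 0.12 on the log2 scale.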

How the data were processed

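Total RNA of 2 wt and 2 RUNX3KO libraries of HGC27 was sequenced, and the authors deposited raw read counts per gene symbol for each library. The submitters' processing notes name bcl2fastq, HISAT2 2.1.0 and HTSeq, while the methods of the study name STAR and featureCounts, and the build was hg19. The strand setting of the counting was not given in the sources used here, so reads of KRT8 and KRT18, which overlap on opposite strands, cannot be assigned with certainty. There were 5 rows that name no gene, holding 25.9% to 28.1% of all counts, which entered neither the library sizes nor the tests.

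Counts of 11731401 to 12110876 per library were scaled by TMM and tested with the quasi-likelihood method of edgeR 4.0.16 in R 4.3.3, after filterByExpr with a minimum count of 10, for 12967 genes. P-values were adjusted over all of them by the Benjamini-Hochberg method, and 0.05 was the threshold. The script was tested on simulated data. Alternatives were DESeq2 1.42.0, other scalings and filters, a replicate block, other lengths and denominators, and the omission of each library. The neighbourhood subtraction, the keratin denominator and the list values without NEFL and JUP (under 10 counts in a library) were chosen after seeing the data.

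Lengths and positions came from GENCODE v44 lifted to GRCh37, and positions were found for 93.2% of the tested genes. Neighbourhoods were the 20 nearest tested genes on each side. Uniqueness was the share of 50-base windows of the MANE transcript that occur once in GRCh37. Promoters came from a RefSeq table for GRCh38.p14, and their coordinates are of that build. Ratios and shares used raw counts.

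Genes named were the 10 members, RUNX3, from each list those past the threshold with at least a 2-fold change and the 3 largest falls and rises past the threshold, and the 5 genes of at least 1000 CPM nearest to VIM in log2 fold change. Other genes (among them NEFH, LMNB2, DST, TCHP, EMD, TMPO, BANF1, CDK1 and the markers) were named after their values were seen. The members and lists were chosen with earlier results of these data known.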

Additional observations from a re-analysis of the deposited data

How the results depend on the processing

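The 7 tested members kept their direction under DESeq2, other scalings, other filters, the other quasi-likelihood setting, the replicate block and the omission of each library. KRT10 and LMNB1 were the members that lost their call under any of these. Across all genes 6341 were called, 3692 with DESeq2 and 2663 to 5551 with 1 library left out. With DESeq2, 6 nuclear envelope genes were called. With 1 library left out the calls were 5 to 8 members, 9 to 14 family genes, 3 to 6 linkers, 4 to 9 nuclear envelope genes and 3 to 7 enzymes. The upper ends for members and family genes include KRT18, which is not among the 7 tested members. KRT18 entered only when a wt library was left out, through 14 counts in RUNX3KO replicate 2 against 0 in wt. Its call there is therefore no evidence of a change. With at least 10 counts required in every library, 298 genes were lower and 160 higher at 2-fold, against 520 and 274. The replicate numbers were not shown to pair the libraries (correlation of deviations 0.0218), and with a replicate block 6286 genes and 7 members were called. The change in the VIM share was -11.3 points, -7.06 over the 10 members, -2.17 without lamins and -11.5 to -11.1 with 1 library left out. The log2 ratio of VIM to KRT8 and KRT18 changed by -3.32, by -1.34 against all keratins and by -3.66 to -2.88 with 1 library left out. The level of VIM per kb was 2266 in wt and 1346 in RUNX3KO with the longest coding transcript, and 949 in wt with library size alone. The log2 fold change of SYNM turned to -0.40 after subtraction of its neighbourhood, and the share of KRT10 changed by -29.2 points among keratins, against 0.0680 in the family. The cause of these differences was not tested. Depth limits KRT18, KRT7 and KRT19, whose floor of 3 counts is 0.249 to 0.254 CPM.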
